A study of Mus musculus with 12 samples.

Results

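The ribosomal protein and translation factor genes described here are those whose names match the ribosomal protein pattern Rpl or Rps followed by a number, with Rplp0, Rplp1 and Rplp2, plus Rpsa, Eef1a1, Eef1b2, Eef2, Pabpc1 and Npm1. Pseudogenes with -ps in the name and the Rps6k kinases were left out. Of 55401 listed genes, 95 had such a name, and 90 of them reached at least 10 normalized counts in at least 6 of the 12 libraries. These 90 genes are called the members. By name they are 51 large subunit genes, 34 small subunit genes and 5 factor genes among 13792 genes that passed the same minimum. GENCODE annotates 4 of them, Rpl6l, Rpl32l, Rps3a2 and Rps3a3, as processed pseudogenes, and the other 86 as protein coding. The members were thus chosen by name and by their level over all libraries. The names were drawn up with results of these libraries known, and Pabpc1 was listed by name. Just inside it lay Rpl32l with a mean of 21.6 normalized counts and Rpl6l with 24.8. Just outside it lay Rps12l1, at 1.17 to 6.99 normalized counts, followed by Rpl3l at 0 to 0.987 counts, while Rpl10l, Rpl39l and Rps4l were listed at 0 in every library.

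RNA was sequenced in bulk from airway organoids, which are hollow epithelial spheres grown in basement membrane extract from airway cells of adult C57BL/6J wild type mouse lungs (10 to 14 weeks, both sexes). In the 6 ablation libraries, 10 neighboring cells of each organoid had been destroyed with a femtosecond laser, and the 6 control libraries came from dishes handled alike in which no cells were ablated. Each dish held 45 organoids, kept in the unsupplemented imaging medium FluoroBrite DMEM from shortly before the laser treatment until harvest 4.5 h after it, and each became 1 library. The study asked which genes change early in the repair of such an injury. All groups carried the same lentiviral vector, in which the p63 promoter drives a Histone2A-mCherry fusion protein, so the controls were transduced as well. Ablation and control dishes share the numbers 1, 3, 4, 5, 6 and 7 and were treated as 6 pairs, since the dishes of a number have the same passage and culture day. Pairs 1 and 3 were at passage P2+14, pairs 4 and 5 at P2+15 and pairs 6 and 7 at P2+16. Pairs 1, 4 and 5 were harvested on culture days 14, 14 and 15, and pairs 3, 6 and 7 on days 20, 18 and 19. The library numbers in the labels fall into 2 ranges, called library set 1 (pairs 1, 3 and 5) and library set 2 (pairs 4, 6 and 7). The titles of controls 4, 6 and 7, which are the 3 controls of library set 2, contain the word ablation, while their treatment label says control. The same titles carry a C after the dish number, as do those of controls 1, 3 and 5. The basal regulator Trp63 was at 8400, 9773 and 9974 normalized counts in ablation dishes 4, 6 and 7. In their controls Trp63 was at 6559, 6443 and 7543, and it was also higher in the ablation dishes of library set 1. These dishes entered as controls, and results are also given for library set 1 alone.

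The libraries were deep and alike. Whole reads could be recovered for 9 libraries and summed to between 23631212 and 29775699 (median 28341575), and normalized counts summed to between 27297950 and 28504390 in all 12. The airway epithelial label was checked on marker genes, with the basal keratin Krt5 at 229016 to 340094 normalized counts, Krt14 at 210725 to 274982 and the basal regulator Trp63 at 6443 to 11436. The club cell product Scgb1a1 (0 to 9.65 counts) and the ciliated cell regulator Foxj1 (2.92 to 18.1) were nearly absent. Other genes of the same marker lists were abundant, with the club cell gene Cyp2f2 at 26191 to 78597 counts, the luminal keratin Krt8 at 21477 to 31146 and the tubulin gene Tubb4b at 10168 to 15295. The alveolar genes Sftpc and Sftpb, the erythroid globin genes and, in 11 of 12 libraries, the fibroblast collagen gene Col1a2 were at 0. Low counts were found for the alveolar gene Sftpa1 (0 to 12.5) and the fibroblast genes Col1a1 (5.12 to 16.9) and Pdgfra (5.99 to 24.5). In whole organoids, fewer cells of a type and less RNA per cell cannot be told apart.

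A ribosome consists of a small subunit, which reads the mRNA, and a large subunit, which joins the amino acids, and nearly every ribosomal protein is present in a single copy. Their mRNAs, and those of elongation factors and of the poly(A) binding protein, start with a run of pyrimidines directly at the cap, the 5′ terminal oligopyrimidine or TOP motif. Through this motif their translation follows growth signalling by the kinase complex mTORC1 and its effector LARP1. Basal cells of the airway epithelium divide to renew the tissue and make ribosomes in doing so.

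A pyrimidine run was more frequent in the start regions of the members than in those of other tested genes, and the choice of members did not use it. RefSeq start regions of the mouse genome GRCm38.p6 were found for 65 of the 90 members. For a gene with several RefSeq starts, the longest run at any of them was taken. A run of at least 7 C or T bases beginning with C, searched on the strand of the gene from 20 bases before to 40 after its start, lay in 48 of these (73.8%) and in 2843 of 9913 other tested genes (28.7%). A match is a description of the letters and not a mapped cap site. The run began 2 bases before the RefSeq start in Rpl28, but 16 bases before it in Rpl13 and at base 16 in Eef2. Windows of 30 bases are shown for the factor and subunit genes that stand at the ends of the comparisons below, and for stalk and paralogous genes. Of the 65 members, 17 had no run of this length, and Eef1b2, Rplp0, Rpl10, Rpl22 and Rpl41 are shown for them. The longest run that begins with C within the searched stretch is in capitals, and each window is read 5′ to 3′ on the strand of the gene.
Eef1a1: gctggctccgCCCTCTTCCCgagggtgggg
Eef2: acgtcagcggtCTCTTCCgccgcagccgcc
Rplp2: gcgtcagcgtCTTCCTTTCgccgccggacg
Rps10: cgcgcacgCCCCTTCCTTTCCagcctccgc
Rps12: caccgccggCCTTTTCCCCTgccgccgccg
Rps27: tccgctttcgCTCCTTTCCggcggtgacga
Rpl13: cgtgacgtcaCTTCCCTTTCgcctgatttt
Rpl13a: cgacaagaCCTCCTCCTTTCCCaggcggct
Rpl18: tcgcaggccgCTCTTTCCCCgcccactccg
Rpl28: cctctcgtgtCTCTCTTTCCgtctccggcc
Rpl22l1: gcaagcccgttCTCTTCCCacggctgcagc
Eef1b2: tgcgtccgagcgCTTTCgttcaactccggc
Rplp0: gaccgcctggttCTCCTataaaaggcacac
Rpl10: ggaagataggccgCCTatataaggcgtgag
Rpl22: atatcagcgctgCTTCTggaatgttccagc
Rpl41: acacacgggccggCTCggaagtgacgacac

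The windows of the factor genes lie at chr9:78481710-78481739 on the minus strand for Eef1a1 and at chr10:81176635-81176664 on the plus strand for Eef2. Those of the stalk and small subunit genes lie at chr7:141447637-141447666 (plus) for Rplp2, chr17:27635226-27635255 (minus) for Rps10, chr10:23787181-23787210 (minus) for Rps12 and chr3:90213631-90213660 (minus) for Rps27. Those of the large subunit genes lie at chr8:123102324-123102353 (plus) for Rpl13, chr7:45128722-45128751 (minus) for Rpl13a, chr7:45718062-45718091 (plus) for Rpl18, chr7:4792953-4792982 (plus) for Rpl28, chr3:28805500-28805529 (plus) for Rpl22l1 and chrX:74270812-74270841 (plus) for Rpl10. The other windows without the run lie at chr1:63176851-63176880 (plus) for Eef1b2, chr5:115559468-115559497 (plus) for Rplp0, chr4:152324414-152324443 (plus) for Rpl22 and chr10:128549155-128549184 (minus) for Rpl41. The longest run measured 14 bases in Rpl13a, 13 in Rps10, 11 in Rps12, and 10 in Eef1a1, Rpl13, Rpl18 and Rpl28. Rps27 and Rplp2 had 9 bases, Rpl22l1 had 8 and Eef2 had 7. The members without the run had 5 bases in Eef1b2, Rplp0 and Rpl22 and 3 in Rpl10 and Rpl41. Another RefSeq start of Rpl22 had 4.

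As a group the members held a large part of the counted mRNA, although single members lay near the count minimum. Together they took 8.20% ± 0.590 (SD, n = 12) of all normalized counts, with 3.47% ± 0.239 on the large subunit genes and 2.70% ± 0.197 on the small subunit genes. To compare genes with each other, normalized counts were divided by the length of 1 principal transcript, so these levels depend on the transcript chosen. On this scale the median member stood at 23024 counts per kb. Eef1a1, which carries aminoacyl-tRNA to the ribosome, was highest with 160813 ± 12110 counts per kb (SD, n = 12). It was followed by the small subunit gene Rps12 with 82594 ± 10030 and the stalk gene Rplp1 with 79478 ± 7930. The ranges of Rps12 and Rplp1 over the dishes overlapped, and their difference within dishes was not tested. Rpl41, the shortest ribosomal protein, stood at 64083 ± 8494.

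The levels fell off gradually and then more steeply at the lower end. Of the 90 members, 78 were above 10000 counts per kb and 12 below it, 6 of each subunit, from Rps27l at 9774 down. Rps20 and Rps15a lie among the 12 after division by transcripts of 3706 and 5130 bases, so their place depends on the transcript chosen. Among these 12, Rpl24 (692 counts per kb), Rps10 (551), Rpl36al (297) and Rpl13a (3541) overlap exons of another annotated gene on the same strand, over 484, 475, 332 and 621 bases. Rps20 (5353 counts per kb) does so over 68 bases. The genes Rps3a2 (235 counts per kb), Rps3a3 (133) and Rpl6l (28.5) share 86.4%, 45.4% and 69.4% of their 75-base windows with other annotated genes, among them Rps3a1 and Rpl6. Reads from such shared bases cannot be assigned to 1 gene by sequence, so the counts of these members are uncertain, and the part of the overlap in their low level was not tested. Sharing was not limited to them, since Rps12 shared 89.5% of its windows, and 20 of 90 members shared under 25%.

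**Figure D1:**
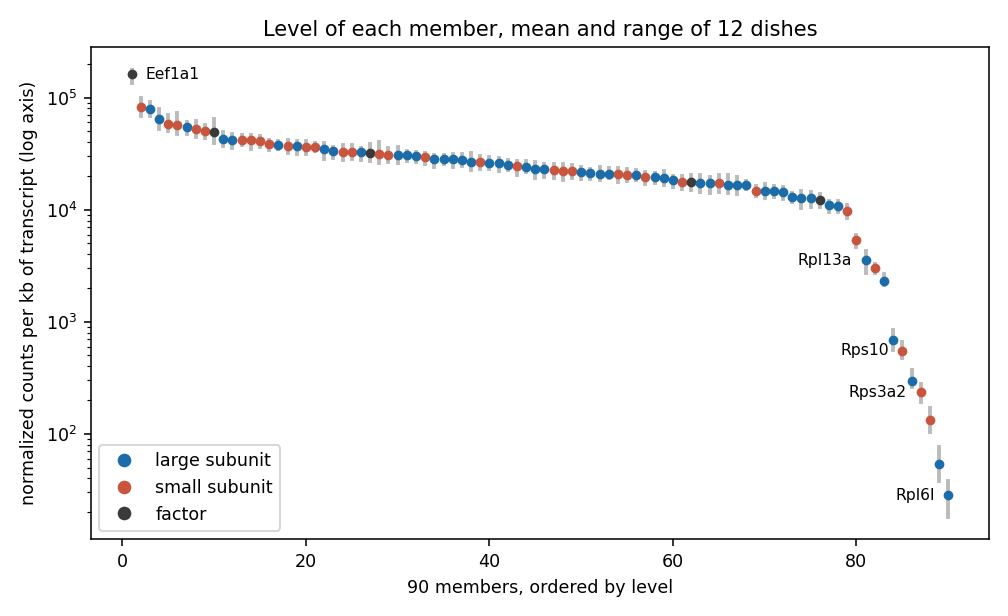
Level of each of the 90 members on a log axis, in normalized counts per kb of the principal transcript, with the point at the mean and the bar from the lowest to the highest of 12 dishes, colored by subunit. The curve runs from Eef1a1 at 160813 counts per kb down to about 10000 and then drops over the last 12 members to Rpl6l at 28.5.

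The members varied together from dish to dish. The log2 value of each member was compared over the 12 dishes with the median of the other members, as a description, since the dishes share pairs and library sets and all members of a dish share its library. The median correlation was r = 0.92, and 67 of 90 members lay above 0.8, against 1.55% of the other 13702 tested genes, whose median was -0.01. Rplp2 followed the group most closely with r = 0.98. The members that followed it least were Rpl36al (r = -0.25), Rps3a2 (0.11), Rpl32l (0.15) and Rps10 (0.22), all among the 12 with low levels, whereas Pabpc1 (0.41) and Rpl22l1 (0.44) stood apart at high counts. The coefficient of variation over 12 dishes had a median of 8.49% for the members, from 5.42% to 21.5%, and of 11.7% for all tested genes.

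Ablation against control was the comparison the study was made for. In the ablation dishes the members took 7.19%, 7.74%, 7.92%, 8.26%, 8.48% and 8.82% of all counts, and in the control dishes 7.63%, 7.79%, 7.99%, 8.47%, 8.97% and 9.12%. The groups overlapped over most of their range. Within pairs the share was lower after ablation in 5 of 6, with a mean difference of -0.262 percentage points ± 0.345 (SD, n = 6), so the spread between pairs was larger than the mean. The share on the ribosomal protein pseudogenes was 0.0221% to 0.0317% in all dishes.

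**Figure D2:**
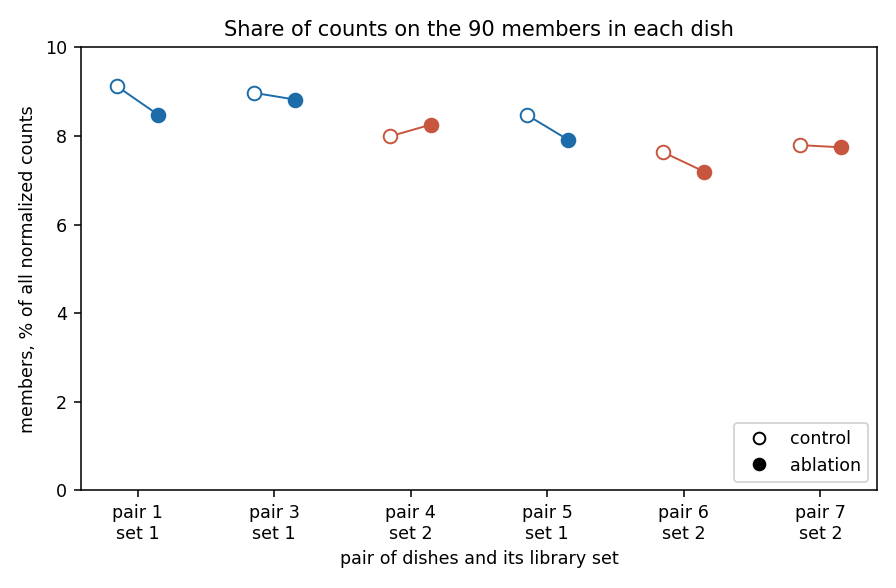
Members' share of all normalized counts in each dish, in percent, with open circles for control and filled circles for ablation dishes, joined within each pair, and blue for library set 1 and red for library set 2. The line falls from control to ablation in pairs 1, 3, 5, 6 and 7 and rises in pair 4, and the red pairs lie lower than the blue ones on average (7.77% against 8.63%).

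No member passed the threshold for a difference between ablation and control. In the model with condition and library set (limma, Benjamini-Hochberg adjustment over all 13792 genes), 0 of 90 members and 0% of all genes had an adjusted p under 0.05. At an unadjusted p under 0.05 stood 3 members, against 7.85% of all genes. Of these, 2 were lower, where 3.70% of all genes were, and 1 was higher. In the model with the pair in place of the library set, 0 members were called against 1.09% of all genes, and 7 members against 17.6% of all genes had an unadjusted p under 0.05, of which 6 were lower, against 8.86% of all genes. On the 9 libraries with recovered reads, which leave out ablation 3, ablation 4 and control 4, edgeR called 0 members, with 15 at an unadjusted p under 0.05 against 5.85% of all genes. DESeq2 called 0, with 18 members against 5.67%, and limma on the same 9 libraries called 0, with 15 members against 5.87%. All of these members were lower after ablation. The direction of the fitted values was uneven nonetheless, with 82 of 90 members lower after ablation where 51.5% of all genes were lower. The members' log2 fold changes had a median of -0.04, against -0.00 for all genes, and ran from -0.28 for Rps3a3 to 0.26 for Rpl6l. The size of this shift depended on the libraries. On the 9 libraries, 88 members were lower in edgeR, 87 in DESeq2 and 87 in limma, with medians of -0.09, -0.09 and -0.09. These libraries lack pair 4, whose members' median difference was 0.06. They also lack the ablation dish of pair 3 (0.00) but keep its control, and they keep pair 7 (0.02). With 1 dish left out the median ran from -0.07 (without ablation 4) to -0.02 (without ablation 5). In library set 1 alone 86 members were lower and in set 2 alone 49, and with quantile normalization of all libraries 68 were, with a median of -0.02. Among the 86 protein-coding members the median was -0.04, with 93.0% lower.

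**Figure D3:**
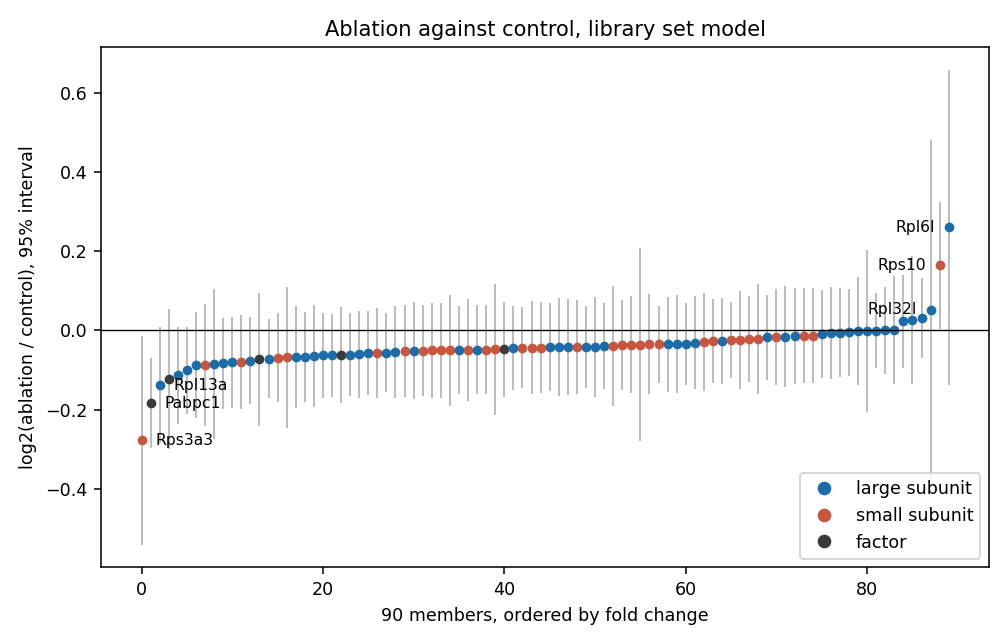
Log2 fold change of ablation against control for each of the 90 members in the library set model, ordered by size, with its 95% confidence interval as a grey line and colors for large subunit, small subunit and factor genes. Of the points, 82 lie below 0, and the intervals of all but Rps3a3, Pabpc1 and Rps10 cross 0.

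The 82 members are not 82 independent observations, because the members of a dish move together, and the pairs differed from each other. The members' median difference within the pair was -0.11 in pair 1, -0.13 in pair 5 and -0.09 in pair 6, where 86, 87 and 81 of the 90 members were lower in the ablation dish. It was 0.06 in pair 4, where 16 members were lower, and 0.02 in pair 7 and 0.00 in pair 3, where 31 and 42 were lower. Over the 6 pairs the median difference averaged -0.04 with an SD of 0.08. The medians of all genes within the pairs stayed between -0.01 and 0.01. Under quantile normalization, the median of pair 7 was 0, and with scaling to the genes other than the members it was -0.00, while the other pairs kept their sign under these scalings and TMM.

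Only 4 members (Pabpc1, Rpl10, Rpl15 and Rpl18) were lower in the ablation dish of all 6 pairs, against 4.63% of all genes, and 0 were higher in all 6, against 5.17%. The transcripts of mitochondrial genes, which can reflect RNA quality, took 1.43%, 1.504% and 1.79% of counts in the ablation dishes of pairs 1, 5 and 6 and 1.41%, 1.49% and 1.79% in their controls, which were close to each other. In pairs 3, 4 and 7 they took 1.29%, 1.45% and 1.67% after ablation and 1.44%, 1.63% and 1.79% in the control. In pairs 1, 5 and 6 the nuclear RNA Neat1 measured 13403, 22785 and 26247 normalized counts after ablation. Their controls had 9654, 9040 and 20489. In pairs 3, 4 and 7 Neat1 measured 17915, 20327 and 20719.5 after ablation and 11648, 13805.5 and 21198 in the control. The part of these RNAs in the members' differences was not tested.

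**Figure D4:**
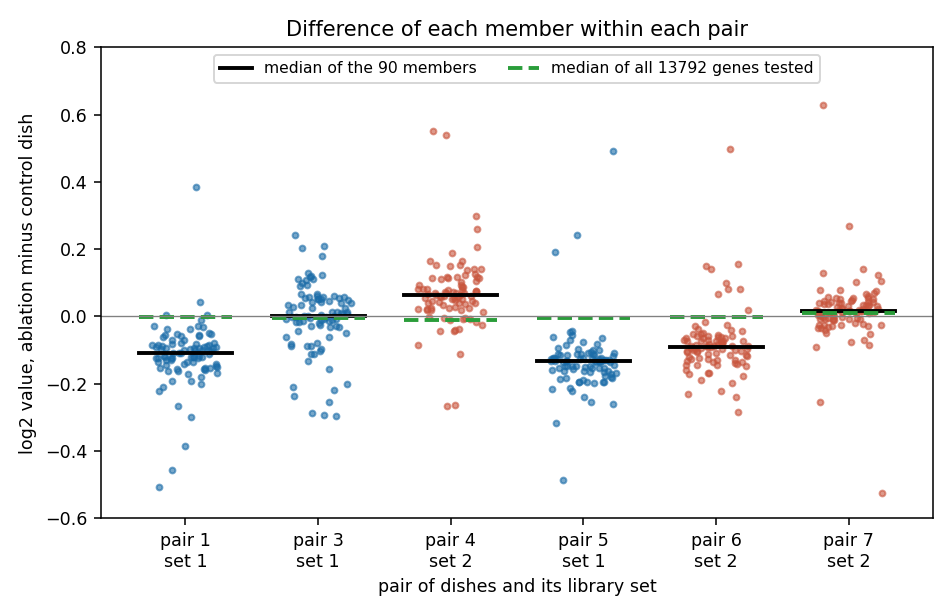
Difference of each of the 90 members within each pair, as the log2 value of the ablation dish minus that of the control dish, with the members' median as a black line and the median of all 13792 tested genes as a dashed green line. The members lie below 0 in pairs 1, 5 and 6 (medians -0.11, -0.13 and -0.09), above 0 in pair 4 (0.06) and around 0 in pairs 3 and 7, while the green lines stay near 0.

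Among the factors, Pabpc1 had the lowest log2 fold change. Since it was listed by name with results of these libraries known, its values are a description and not independent evidence. It encodes the cytoplasmic protein that coats poly(A) tails, and lies on chromosome 15 from 36595661 to 36609668 (GRCm38). Normalized counts of Pabpc1 were 49012, 47418, 42599, 43284, 46873 and 48110 in ablation dishes 1, 3, 4, 5, 6 and 7, and 57112, 56528, 51168, 51604, 49319 and 49243 in the controls of the same numbers. Every ablation dish was below every control dish, although the highest ablation value (49012) came close to the lowest control (49243). Pabpc1 was the 1 member whose groups did not overlap, against 0.457% of all genes. Its log2 fold change was -0.18 ± 0.05 (SE, n = 6 per group), with an adjusted p of 0.486 in the limma library set model and of 0.0603 with the pair as a term. Without pair 7 the paired limma model gave an adjusted p of 0.0475. Of 31 alternatives this was the 1 that passed the threshold. On the 9 libraries with recovered reads, edgeR gave an adjusted p of 0.802 and DESeq2 of 0.699. Pabpc1 shares 11.2% of its windows with other annotated genes.

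The elongation factors did not pass the test. Eef2, the GTPase that moves the ribosome along the mRNA, lay at 122642 to 178704 (median 139669) normalized counts after ablation and at 124477 to 199344 (median 151985) in the control. The ranges overlapped, with controls 1 (199344) and 3 (190392) above every ablation dish. Its log2 fold change was -0.12 ± 0.08 (SE, n = 6 per group), with an adjusted limma p of 0.739, or 0.269 with the pair as a term. Eef1a1 ran from 244128 to 308135 (median 284810) after ablation and from 265083 to 317687 (median 295512) in the control. The log2 fold change of Eef1a1 was -0.06 ± 0.06. It was lower in 5 of 6 pairs. For Eef1b2, part of the factor that recharges Eef1a1 with GTP, the log2 fold change was -0.05 ± 0.05, with 3 pairs lower and 3 higher. For Npm1, a nucleolar chaperone of ribosome assembly, it was -0.07 ± 0.08, with 4 pairs lower. With 1 dish left out the values ran from -0.161 to -0.0734 for Eef2 and from -0.0959 to -0.0325 for Eef1a1. They ran from -0.0787 to -0.0231 for Eef1b2 and from -0.118 to -0.0184 for Npm1.

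The stalk of the large subunit, to which the elongation factors bind, is built from Rplp0, Rplp1 and Rplp2. Their log2 fold changes were -0.05 ± 0.05, -0.06 ± 0.05 and -0.04 ± 0.05 (SE, n = 6 per group), with 5, 4 and 4 of 6 pairs lower and adjusted limma p-values of 0.846, 0.782 and 0.860. Rplp0 ran from 64188 to 79061 (median 73423) normalized counts after ablation and from 66609 to 82618 (median 75235) in the control, which overlapped over most of the range.

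Of the 34 small subunit genes 33 had a negative log2 fold change, with a median of -0.04. Rps10 was the exception. It measured 453, 587, 502, 543, 478 and 539 normalized counts in ablation dishes 1, 3, 4, 5, 6 and 7 and 465, 496, 419, 460, 431 and 493 in their controls. Rps10 was higher after ablation in 5 of 6 pairs, and the groups overlapped. Its log2 fold change was 0.16 ± 0.07 (SE, n = 6 per group) with an adjusted limma p of 0.629, or 0.173 with the pair as a term. These counts come from a gene that shares 51.4% of its windows and 475 exonic bases with the readthrough gene RPS10-NUDT3.

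At the other end, Rps3a3, annotated as a processed pseudogene, lay at 81.9 to 108 (median 97.4) normalized counts after ablation and at 95.8 to 135 (median 116) in the control. The upper ablation values overlapped the lower control values. Its log2 fold change of -0.28 ± 0.12 (SE, n = 6 per group) had an adjusted limma p of 0.629. Rps2 and Rpsa, both highly expressed (Rpsa encodes the small subunit protein also known as laminin receptor), had log2 fold changes of -0.09 ± 0.07 and -0.04 ± 0.06. Rps12, second in level, had -0.04 ± 0.07 with 3 of 6 pairs lower.

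Of the 51 large subunit genes 44 had a negative log2 fold change and 7 a positive one, with a median of -0.04. Rpl13a ran from 2871 to 4203 (median 3532) normalized counts after ablation and from 3445 to 4443.5 (median 3873) in the control. The difference went down in 5 of 6 pairs, and the log2 fold change was -0.14 ± 0.07 (SE, n = 6 per group) and an adjusted limma p of 0.648, or 0.167 with the pair. For Rpl13 the log2 fold change was -0.11 ± 0.06 with 5 pairs lower, and for Rpl18 it was -0.10 ± 0.05 with 6. Rpl10, whose protein joins the large subunit late in its assembly, had -0.07 ± 0.05, also lower in all 6 pairs. The positive values were small in the abundant genes, 0.03 ± 0.05 for Rpl37a, 0.03 ± 0.07 for Rpl41 and 0.02 ± 0.05 for Rpl3. They were less precise in the pseudogenes Rpl6l and Rpl32l. Rpl6l had 0.26 ± 0.18 at 15.8 to 33.1 normalized counts over all dishes, and Rpl32l had 0.05 ± 0.20 at 15.2 to 30.6.

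Several ribosomal protein genes have a second gene of a similar name, which encodes a related protein in Rpl22l1, Rps27l, Rpl7l1 and Rpl36al. A difference between the forms was not tested. Rpl22 (-0.07 ± 0.04) and Rpl22l1 (-0.09 ± 0.06) were both lower in 4 of 6 pairs. Rps27 (-0.04 ± 0.04) and Rps27l (-0.05 ± 0.06), a p53-responsive gene, were also lower in 4 pairs each. Rpl7 stood at -0.03 ± 0.06 and Rpl7l1 at 0.00 ± 0.06, Rpl36a at -0.01 ± 0.05 and Rpl36al at -0.00 ± 0.09, and Rpl32 at -0.01 ± 0.06. Rpl6 had -0.04 ± 0.06, where the pseudogene Rpl6l had 0.26 ± 0.18. Of the forms whose partner was under the minimum, Rpl39 had -0.00 ± 0.06.

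Other genes of the translation pathway were counted in the same fits, and 0 of 224 in 8 lists were called in either model, against 0% and 1.09% of all genes. At an unadjusted limma p under 0.05 stood 4 of the 224 with library set as a term, against 7.85% of all genes, and 30 with the pair as a term, against 17.6%. The counts of lower genes below stand beside 51.5% of all genes lower. Among other TOP mRNAs 17 of 19 were lower after ablation (median log2 fold change -0.05), and among further elongation and release factors 8 of 9 (-0.05). Ribosome assembly genes were lower in 30 of 41 (-0.05), mitochondrial ribosomal proteins in 58 of 77 (-0.02), initiation factors in 25 of 34 (-0.03), and mTORC1 and eIF2 kinase genes in 11 of 19 (-0.02). Host genes of snoRNAs were higher in 7 of 12 (0.05), and poly(A) binding proteins and TOP regulators in 9 of 13 (0.04).

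The gene with the lowest p of each list in the paired limma model stayed above the threshold. The assembly factor Wdr12 had a log2 fold change of -0.17 ± 0.10 (SE, n = 6 per group) with a paired adjusted p of 0.113. For the helicase Eif4a2 it was 0.13 ± 0.07 (adjusted p of 0.124), for the mTORC1 component Akt1s1 -0.13 ± 0.05 (0.128) and for the mitochondrial protein Mrpl24 -0.12 ± 0.05 (0.132). The initiation factor subunit Eif3f had -0.11 ± 0.07 (0.189), the host gene Snhg20 0.20 ± 0.10 (0.202), the RNA-binding protein Tial1 0.08 ± 0.08 (0.299) and the release factor Gspt1 -0.07 ± 0.06 (0.367). Mrpl24 was lower in the ablation dish of all 6 pairs and Snhg20 higher in all 6.

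Of the marker genes, the nuclear RNA Neat1 was higher after ablation in 5 of 6 pairs (log2 fold change 0.55 ± 0.16, SE, n = 6 per group; adjusted limma p of 0.486) and Malat1 in 4 of 6 (0.24 ± 0.20). The mitochondrial rRNA gene mt-Rnr2 went the other way, lower in 5 of 6 pairs (-0.17 ± 0.10), and mt-Rnr1 had 0.09 ± 0.08. Krt8 was higher in all 6 pairs (0.11 ± 0.09) and Tubb4b lower in all 6 (-0.12 ± 0.10), with paired adjusted limma p-values of 0.160 and 0.147, while the secretory genes Cyp2f2 (-0.16 ± 0.24) and Scgb3a2 (-0.19 ± 0.27) were lower in 4 of 6 pairs. The summed level of Malat1, Neat1, mt-Rnr1 and mt-Rnr2, of which mt-Rnr2 was the most abundant, was 63390 to 98180 normalized counts after ablation and 68100 to 97757 in the control. Immune markers summed to 133 to 174 counts after ablation and 144 to 222 in the control, mainly Cd68, with Cd3e at 0 in 11 of 12 libraries, and fibroblast markers to 17.98 to 42.2 and 17.8 to 48.3. Basal markers summed to 460451 to 600901 counts after ablation and 457473 to 584128 in the control, led by Krt5, and Trp63 was higher after ablation in 6 of 6 pairs (0.39 ± 0.08; paired adjusted limma p of 0.00825). The part of these genes in the members' values was not tested.

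The larger difference lay between the library sets. The members took 7.92% to 9.12% of all counts in set 1 (mean 8.63% ± 0.436, SD, n = 6) and 7.19% to 8.26% in set 2 (7.77% ± 0.358). On the means of the pairs, 87 of 90 members were lower in set 2, against 50.8% of all genes, with a median log2 difference of -0.16 where all genes had -0.00. At an unadjusted limma p under 0.05 stood 41 members, all lower in set 2, against 9.38% of all genes and 4.31% that were lower. No member and 0% of all genes passed the adjusted threshold with 3 pairs against 3. The median lay between -0.20 and -0.12 with any 1 pair left out, and at -0.16, -0.12 and -0.15 with TMM, quantile normalization and scaling to the genes other than the members.

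**Figure D5:**
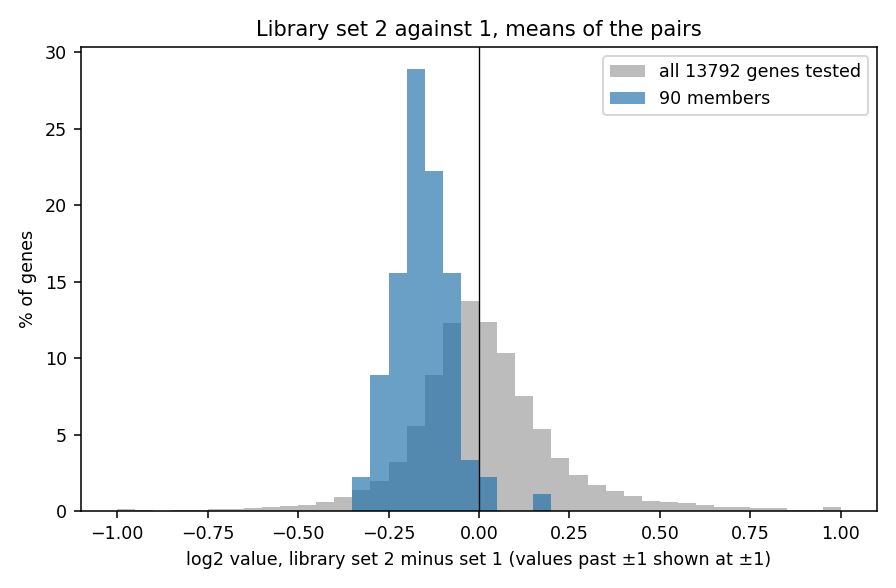
Distribution of the log2 difference between library set 2 and set 1 on the means of the pairs, as a percentage of genes per bin, for the 90 members in blue and all 13792 tested genes in grey, with values beyond 1 in either direction drawn at 1. The members sit around -0.16, to the left of the grey distribution, which is centered at 0.

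Eef2 had the lowest value, with a log2 difference of -0.32 ± 0.10 (SE, 3 pairs per set; adjusted limma p of 0.471). Its mean was 169905 normalized counts in set 1 and 135189 in set 2, but the ranges overlapped, since ablation dish 5 of set 1 (138967) was below control dish 4 (147490) and ablation dish 7 (140371) of set 2. The large subunit gene Rpl28 had -0.29 ± 0.06, with means of 21247 and 17363 counts. The adjusted limma p of Rpl28 was 0.465. The highest values belonged to the uncertain genes Rpl36al (0.18 ± 0.12) and Rps3a2 (0.04 ± 0.12), and to Rpl22l1 (0.01 ± 0.07). Pabpc1, at -0.08 ± 0.07, and Rpl22, at -0.09 ± 0.06, were nearer to 0 than the members' median.

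Of the other genes of the pathway, 0 were called between the sets. Beside 50.8% of all genes lower in set 2, ribosome assembly genes were lower in 39 of 41 (median -0.17; 1 at an unadjusted limma p under 0.05, against 9.38% of all genes), other TOP mRNAs in 17 of 19 (-0.13), elongation and release factors in 8 of 9 (-0.15) and mitochondrial ribosomal proteins in 64 of 77 (-0.08). Initiation factors were lower in 24 of 34 (-0.05), mTORC1 and eIF2 kinase genes in 12 of 19 (-0.02), poly(A) binding proteins and TOP regulators in 4 of 13 (0.12) and host genes of snoRNAs in 3 of 12 (0.15). RNA quality measures and cell markers of the same dishes are set beside these values, and 0 of the marker genes were called between the sets. At an unadjusted limma p under 0.05 stood 2 of 4 RNA quality genes, 1 of 4 basal markers and 1 of 3 immune markers. Malat1 was 0.73 ± 0.20 and Neat1 0.60 ± 0.14 higher on the log2 scale in set 2 (SE, 3 pairs per set), with mt-Rnr1 at 0.14 ± 0.07 and mt-Rnr2 at -0.01 ± 0.13, and mitochondrial transcripts took 1.69% ± 0.136 of counts against 1.43% ± 0.0766 (SD, n = 6). Of the basal markers, Krt5 (-0.30 ± 0.09), Trp63 (-0.19 ± 0.09) and Krt14 (-0.16 ± 0.09) were lower in set 2 and Ngfr stood at 0.00 ± 0.17, and the proliferation marker Mki67 stood at 0.29 ± 0.19. The sets also differ in passage and in the days of culture. Only pairs 4 (set 2) and 5 (set 1) shared a passage. The members took 8.26% and 7.99% of counts in ablation and control dish 4, and 7.92% and 8.47% in those of pair 5. Pairs 1 and 3, at the lowest passage, took 8.48% to 9.12%, and pairs 6 and 7, at the highest, 7.19% to 7.79%. The part of passage in the members' values was not tested. Library number range, passage, RNA quality and cell makeup thus cannot be told apart.

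The response to ablation was set side by side for the library sets. In set 1 alone, 86 of 90 members were lower after ablation with a median log2 fold change of -0.08, and in set 2 alone, 49 were lower with a median of -0.01. The difference of the responses was above 0 in 88 of 90 members, against 51.5% of all genes, with a median of 0.08. In the limma interaction test no member had an adjusted or an unadjusted p under 0.05, against 0% and 1.67% of all genes. With the pair as a term, 5 members (Rpl41, Rps2, Rps12, Rps15 and Rps26) had an unadjusted p under 0.05, against 7.88% of all genes, and 0 passed the adjusted threshold, against 0.00725%. Ribosome assembly genes were above 0 in 41 of 41 (median 0.19), with 19 at an unadjusted paired limma p under 0.05 and 0 called. Mitochondrial ribosomal proteins were above 0 in 65 of 77 (0.10) and other TOP mRNAs in 17 of 19 (0.09). For mTORC1 and eIF2 kinase genes it was 8 of 19 (-0.01), and for RNA quality genes 1 of 4 (-0.28). Within set 2 itself, pair 6 had a members' median of -0.09 and pair 4 of 0.06, so pairs of the same set also differed in direction.

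Culture day did not give a stable difference. With library set as covariate, 64 of 90 members were lower in the late pairs (days 18 to 20) than in the early ones (days 14 and 15), against 49.1% of all genes, with a median log2 difference of -0.01. No member had an unadjusted limma p under 0.05, against 6.49% of all genes, or an adjusted one, against 0.00725%. Without pair 4 the median turned to 0.09 with 3 members lower, without pair 6 to 0.02 with 25 lower, and without pair 3 it was -0.12 with 84 lower. The highest values were those of Rps3a2 (0.15 ± 0.12), Rps10 (0.12 ± 0.10) and Npm1 (0.09 ± 0.11), and the lowest those of Rpl32l (-0.19 ± 0.25), Rpl39 (-0.10 ± 0.07) and Rpl14 (-0.09 ± 0.08; SE, 3 pairs per class). The ribosome assembly genes were higher in the late pairs in 40 of 41 cases (median 0.20), with 11 at an unadjusted limma p under 0.05 and 0 called. Likewise higher were 8 of 9 elongation and release factors (0.14), 27 of 34 initiation factors (0.08) and 65 of 77 mitochondrial ribosomal proteins (0.04). Other TOP mRNAs were higher in 11 of 19 (0.01). Of the markers, 4 of 4 RNA quality genes (0.30) and 2 of 2 proliferation genes (0.13) were higher late. Luminal and secretory markers were lower in 3 of 3 (-0.31). The markers' part in these values was not tested. The lists have no values with a pair left out.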

How the data were processed

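Stranded libraries were made from poly(A) RNA. The authors demultiplexed reads with bcl2fastq, counted them with the nf-core RNA-seq pipeline on GRCm38.p6 and deposited normalized counts (signal values: read counts divided by 1 DESeq2 size factor per library). The deposited table also holds the authors' own comparison, as log2 fold changes, score columns (standard errors and Wald statistics) and p-values, none of which was used. In each column 100% of low values were whole multiples of 1 step (within 0.1). Whole counts were thus recovered from 9 deposited columns and not for ablation 3, ablation 4 and control 4, whose step lies near 1, so edgeR was replaced by limma as the main test.

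Log2(normalized count + 1) values of genes that reached the minimum (10 normalized counts in 6 or more libraries) were fitted with limma 3.58.1 (R 4.3.3; trend and robust eBayes, two-sided, Benjamini-Hochberg, threshold 0.05), with condition and library set as terms. Fold changes on this scale understate those of low genes. The methods name a batch without defining it, and the library set was taken for it. Library set 2 against 1 and late against early day were fitted on pair means. The fits were tested on simulated data. edgeR 4.0.16 and DESeq2 1.42.0 were run on recovered reads. Same-numbered dishes deviated together from their group means across genes, with r = 0.62, 0.49, 0.21, 0.32, 0.38 and 0.33 for pairs 1, 3, 4, 5, 6 and 7, and share passage and day, so the numbers were taken as pairs. The labels do not tie dishes to separate animals, so p-values cannot be read as a spread between animals. In the fits on pair means they measure the spread between pairs of dishes only. With the pair as a term they measure the spread of differences within pairs, and otherwise the spread between dishes.

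The members and lists were chosen with earlier results of these data known. Named were the factor and stalk genes, paralogues, the 5 highest and 5 lowest fold changes, the 4 highest means, the 3 highest and 3 lowest for library set and culture day, and for each list the gene with the lowest paired p. A gene that this rule names is not reported here. Rpl15, Rpl18, Rps15, Rps26 and the low-level genes were named after their values were seen. All 90 member identifiers matched GENCODE M21, which gave lengths, overlaps and shared 75-base windows (1 transcript per gene, by APPRIS tag, support level, then the shortest). Alternatives were other pseudocounts, filters, scalings and tools, the pair as a term, and leaving out dishes or pairs.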

Additional observations from a re-analysis of the deposited data

Results flagged for a closer look

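Chance alone marks about 1 in 20 groups of dishes as holding a dish apart from the rest, and 2 of 74 groups were marked. Rpl32l measured 28.7 normalized counts in ablation dish 4, where the next ablation dish had 21.6. Rpl7l1 measured 6999 counts in ablation dish 3, where the next had 6065. In 2 named members the ablation dish was lower than the control in every pair of library set 1 and higher in every pair of set 2. For Rpl41 the response in set 2 minus that in set 1 was 0.23 on the log2 scale (paired limma p of 0.00517, adjusted 0.460), and for Rps12 it was 0.18 (p of 0.0240, adjusted 0.603).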

How the results depend on the processing

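In ablation against control, 0 members were called with other pseudocounts, filters, scalings, limma settings, edgeR or DESeq2. Of all genes, 150 were called with the pair as a term (replicate block), 11 by DESeq2, 3 without a filter and 3 with scaling to the genes other than the members, against 0. Leaving out 1 dish gave 0 to 2 calls. Leaving out 1 pair in the paired model gave 8 to 176 calls, with 0 to 1 members called. The pair as a term also gave 1 call in place of 0 for the response difference, and changed no call among members or pathway lists. The count of members lower was 49 in library set 2 alone, and 64 (without ablation dish 5) to 86 (without ablation dish 4) with 1 dish left out. Late against early day gave 0 calls without the covariate in place of 1, and 0 to 3 with 1 pair left out, with 3 to 84 members lower and a median of -0.12 to 0.09.

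Several members changed sign, most of them with a log2 fold change near 0, but also Rpl6l, Rps2 and Npm1. With quantile normalization Rpl36al had 0.0128, Rpl39 0.00225, Rps12 0.0223 and Rpsa 0.0141, with TMM Rpl36al 0.00091 and Rpl39 0.000416, and with scaling to the other genes Rpl36al 0.00286 and Rpl39 0.00238. In edgeR, Rpl3 had -0.0314, Rpl32l -0.0283, Rpl37a -0.00335, Rpl41 -0.00986 and Rpl7l1 -0.0600, and in DESeq2 Rpl3 -0.0268, Rpl32l -0.0218, Rpl41 -0.00546 and Rpl7l1 -0.0554. In library set 1 alone Rpl32l had -0.106, Rpl36al 0.0413, Rpl41 -0.0870, Rpl6l -0.0339 and Rpl7l1 -0.0661. In set 2 alone Npm1 had 0.0149, Rpl14 0.0376, Rpl32 0.0255, Rpl36a 0.0118, Rpl39 0.00281, Rpl7 0.0103, Rplp0 0.000544, Rps12 0.0478, Rps2 0.0243, Rps27l 0.00309, Rps3a2 0.0433 and Rpsa 0.00659. The causes were not tested.

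With 1 dish or pair left out the values ran from -0.0589 to 0.00820 for Rpl14, -0.00816 to 0.0505 for Rpl3, -0.0499 to 0.0166 for Rpl32, -0.0470 to 0.163 for Rpl32l, -0.0331 to 0.0303 for Rpl36a, -0.0550 to 0.0387 for Rpl36al, -0.0450 to 0.0375 for Rpl39, -0.00424 to 0.0823 for Rpl41, -0.0342 to 0.0422 for Rpl7l1, -0.0759 to 0.0109 for Rps12 and -0.153 to 0.0138 for Rps3a2. In all, 1019 of 1114 values of 36 named members kept direction and side of the threshold. Alternatives chosen after seeing the data were the library sets under other scalings, the pair differences under scalings, limma on the 9 libraries, the 86 protein-coding members and the 20 members with under 25% shared windows, which had a median of -0.04. Depth does not limit the abundant members, but Rpl6l and Rpl32l rest on few reads, and edgeR and DESeq2 used 9 of 12 libraries. Intervals cover the spread between dishes only.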
